A study of Mus musculus with 10 samples.

Results

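The histone genes of the mouse cerebral cortex are described here. Members were the rows of the count table whose Ensembl identifier maps, in the GENCODE M21 annotation, to a symbol beginning with Hist1h, Hist2h, Hist3h, Hist4h, H2af, H3f3 or H1f, with 1 further H2A variant gene left out by the rule. This gave 49 of the 14276 genes in the table: 40 replication-dependent genes, which carry the Hist symbols, and 9 variant genes, H1f0, H1fx, H2afj, H2afv, H2afy, H2afy2, H2afz, H3f3a and H3f3b. GENCODE M21 annotates 90 genes by this rule, 81 of them protein coding. Every gene in the table had at least 0.582 CPM (read counts scaled to the library total) in 5 or more libraries, so the 49 members are those that had passed a filter on low values, and the other annotated genes were not analysed here.

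Ribosomal RNA-depleted libraries of total RNA were made from the cortex of C57BL/6 mice aged 3 months, 5 labelled control and 5 labelled BrapcKO, a conditional knockout of Brap, which encodes a ubiquitin ligase that binds BRCA1. Controls 08, 22 and 23 were flox/wt Cre- and controls 09 and 24 flox/flox Cre-, while BrapcKO 04, 07 and 21 were flox/ko Cre+ and BrapcKO 05 and 06 flox/flox Cre+. Cre recombinase deletes a flox allele, and ko marks an allele already deleted. All BrapcKO and no control libraries carried Cre, whose driver is not named in the labels, so an effect of Cre cannot be told apart from that of the deletion. Each title also carries a code, B1 for controls 08 and 09 and BrapcKO 04 to 07, and B2 for controls 22 to 24 and BrapcKO 21; the labels do not say what it means.

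Histones are the proteins around which nuclear DNA is wound: H2A, H2B, H3 and H4 form the core of the nucleosome, and H1 binds the linker DNA between nucleosomes. The replication-dependent genes lie in clusters, typically lack introns, supply histones for newly copied DNA in S phase, and give mRNAs that end in a conserved stem-loop instead of a poly(A) tail. The variant genes are used outside S phase too, and their mRNAs are polyadenylated; in neurons, which do not divide, variant histones are the main supply for replacing histones in chromatin. In GENCODE M21, 2 of the 40 replication-dependent members, Hist1h2bc and Hist1h2be, have an annotated transcript of 2 exons, and the others have 1. A library made after ribosomal RNA depletion can keep both kinds of mRNA.

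The stem-loop is the feature that separates the classes at the RNA level, and its forms are shown for that reason. A search of the GENCODE M21 transcripts for a 16-base hairpin of this kind found it in 31 of the 40 replication-dependent members, in 0 of the 9 variants, and in 48 genes of the table (0.34% of those matched). The members held 7 forms. Each is written 5′ to 3′ as DNA, with the bases of the stem in capitals and the loop in lower case. Hist1h1c, a linker histone gene, carries the form found in 15 members of the H1, H2A, H2B and H3 families (chr13:23739512-23739527, plus strand, GRCm38).
Hist1h1c: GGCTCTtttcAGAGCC
Hist1h3e carries a form found in 5 H2B and H3 members (chr13:23561903-23561918, minus strand).
Hist1h3e: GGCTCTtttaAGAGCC
Hist1h4h carries a form found in 5 members, all of them H4 genes (chr13:23531458-23531473, plus strand).
Hist1h4h: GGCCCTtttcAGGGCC
Hist1h4b carries a form found in 2 H4 members (chr13:23757366-23757381, plus strand).
Hist1h4b: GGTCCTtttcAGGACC
The stems of all 10 H4 members with a stem-loop were of the last 2 kinds or differed from them in the loop alone, and no member of another family held those stems.

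Copies of a histone gene are nearly identical in their coding parts, so a read can fit several genes. The 50-base coding stretch held by the most other genes is shown for 4 members, all in lower case, from the GENCODE M21 transcripts (GRCm38). In Hist1h4h the stretch (chr13:23531277-23531326, plus strand) is also in 10 other genes, 7 of them members.
Hist1h4h: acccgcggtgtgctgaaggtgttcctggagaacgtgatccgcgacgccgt
In Hist1h2bg it (chr13:23571706-23571755, plus strand) is in 14 other genes, 8 of them members.
Hist1h2bg: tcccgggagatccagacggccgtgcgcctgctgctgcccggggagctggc
In H2afz it (chr3:137866062-137866111, plus strand) is in 5 other genes, of which 3 are pseudogenes and 0 are members.
H2afz: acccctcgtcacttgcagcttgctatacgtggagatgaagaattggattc
In H3f3a it (chr1:180803141-180803190, minus strand) is in 17 other genes, of which 16 are pseudogenes and 0 are members.
H3f3a: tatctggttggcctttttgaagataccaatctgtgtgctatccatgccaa
Of the 50-base stretches that lie within 1 coding exon, 72.3% in Hist1h4h, 86.0% in Hist1h2bg, 93.9% in H3f3a and all 185 in H2afz were also found in another gene. No source used here says how the authors' counting treated reads that fit more than 1 gene. Such reads may have been divided among the genes or left out. Single-gene values, family sums and class sums below are uncertain to that extent.

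Promoters were compared because members of 1 class may share control elements. RefSeq (GRCm38.p6) held a promoter of 250 bases before to 50 bases after the start for 44 of the 49 members, 35 replication-dependent and 9 variant. The TATA box (letters TATAAA), the CCAAT box (letters CCAAT), the octamer known from H2B promoters (letters TTTGCAT) and the H1 box (letters AAACACA) were searched on both strands. The TATA box was in 62.86% of replication-dependent promoters, 11.11% of variant promoters and 13.62% of all 32851 promoters, and the CCAAT box was in 80.0%, 66.67% and 37.41%. The octamer was in 4 of 9 H2B and 3 of 4 replication-dependent H2A promoters against 4.63% of all, and the H1 box was in 4 of 5 replication-dependent H1 promoters against 7.18% of all. A match is a description of letters and does not show that a factor binds. For 3 genes the 150 bases before the RefSeq start are shown, with these letters in capitals on either strand (ATTGG marks the CCAAT box read on the other strand); the genes were picked after their values were seen. Hist1h2bg (chr13:23571250-23571399, plus strand) has the CCAAT box, the octamer and the TATA box.
Hist1h2bg: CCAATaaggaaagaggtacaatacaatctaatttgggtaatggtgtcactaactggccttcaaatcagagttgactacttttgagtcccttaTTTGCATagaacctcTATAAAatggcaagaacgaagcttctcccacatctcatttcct
Hist1h1e (chr13:23622559-23622708, minus strand) has the H1 box, the CCAAT box and the TATA box.
Hist1h1e: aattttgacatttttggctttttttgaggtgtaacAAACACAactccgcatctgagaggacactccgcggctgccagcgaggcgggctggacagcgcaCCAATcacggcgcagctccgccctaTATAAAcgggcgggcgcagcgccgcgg
The H2afz stretch (chr3:137864337-137864486, plus strand) has the CCAAT box on both strands and no TATA box.
H2afz: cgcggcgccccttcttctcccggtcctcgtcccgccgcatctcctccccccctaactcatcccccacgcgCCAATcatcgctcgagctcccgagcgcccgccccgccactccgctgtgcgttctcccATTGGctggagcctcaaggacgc

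The B1 libraries held 17188901 to 20955211 counts and the B2 libraries 26356508 to 28991874, so code and depth cannot be told apart. Levels are given as CPM with library totals scaled by the TMM method, except for Ddx3y, whose CPM use the library totals without TMM. Brap stood at 88.4 ± 8.58 CPM (SD, n = 5) in controls and 104 ± 9.15 CPM (SD, n = 5) in BrapcKO libraries (log2 difference 0.23, SE 0.10, edgeR adjusted p = 0.18), and was therefore not lower in the libraries labelled BrapcKO; the deleted exons are not named in the labels, so whole-gene counts may not show the deletion. Ddx3y, a Y-linked gene, ran from 119 to 147 CPM in 5 libraries (control 23; BrapcKO 05, 06, 07, 21) and reached at most 0.0526 CPM elsewhere, which gives 3 male libraries of 6 in B1 and 2 of 4 in B2. By group, control 23 was the only male control and BrapcKO 04 the only BrapcKO library that was not male. Neither B1 control was male, so sex and group cannot be fully told apart, also within B1. A fit with a Y-linked score as a further term is given at the end. The cortical marker Slc17a7 was at 807 to 1300 CPM in all libraries. Striatal markers summed to 239 to 594 CPM in controls and 476 to 1100 CPM in BrapcKO libraries, with 4 of 6 genes called higher in BrapcKO. In the same comparison 4 of 6 inhibitory neuron markers and 1 of 5 astrocyte markers (Gfap) were called higher. Of the excitatory neuron markers, 2 of 7 (Neurod6 and Camk2a) were called lower and 0 higher. Over all genes 3.12% were called higher and 4.95% lower in BrapcKO. Choroid plexus markers summed to 2310 CPM in control 24 and to 42.9 to 680 CPM in the other libraries. Endothelium markers summed to 126 to 195 CPM in B1 and 69.8 to 114 CPM in B2, without overlap, and 2 of 4 (Cdh5 and Pecam1) were called lower in B2. Other markers called in B2 against B1 were 2 of 7 for excitatory neurons (lower), 2 of 6 for inhibitory neurons, 1 of 5 for oligodendrocytes, 1 of 4 for their precursors and 2 of 6 for striatum (all higher). Over all genes 13.4% were called higher and 11.8% lower in B2, and these counts from short lists are not read as a difference in cell types. Fewer cells of a type and less RNA per cell cannot be told apart in bulk tissue. The labels do not say that each library is a separate animal, so each p reflects the spread among the libraries, part of it possibly technical.

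Summed levels of histone genes were higher in the B2 libraries in both classes. The part of depth and of the cell type markers that differ between the codes was not tested. Nor do the labels say whether reads of the 2 codes had 1 length or were mapped and counted alike. The 40 replication-dependent genes together stood at 173 and 216 CPM in B1 controls 08 and 09, at 209, 288, 310 and 205 CPM in BrapcKO 04 to 07, at 494, 507 and 707 CPM in B2 controls 22 to 24 and at 514 CPM in BrapcKO 21. The 9 variant genes together stood at 237 and 231 CPM in the B1 controls, at 223, 216, 242 and 216 CPM in the B1 BrapcKO libraries, at 454, 439 and 411 CPM in the B2 controls and at 419 CPM in BrapcKO 21. All 4 B2 libraries were above all 6 B1 libraries in each sum. Among B1 libraries the variant sum moved little (216 to 242 CPM) while the replication-dependent sum ran from 173 to 310 CPM. The ratio of the replication-dependent to the variant sum was 0.731 and 0.934 in the B1 controls, 0.935, 1.33, 1.28 and 0.95 in BrapcKO 04 to 07, 1.09, 1.15 and 1.72 in the B2 controls and 1.23 in BrapcKO 21, so it overlapped between the codes.

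**Figure D1:**
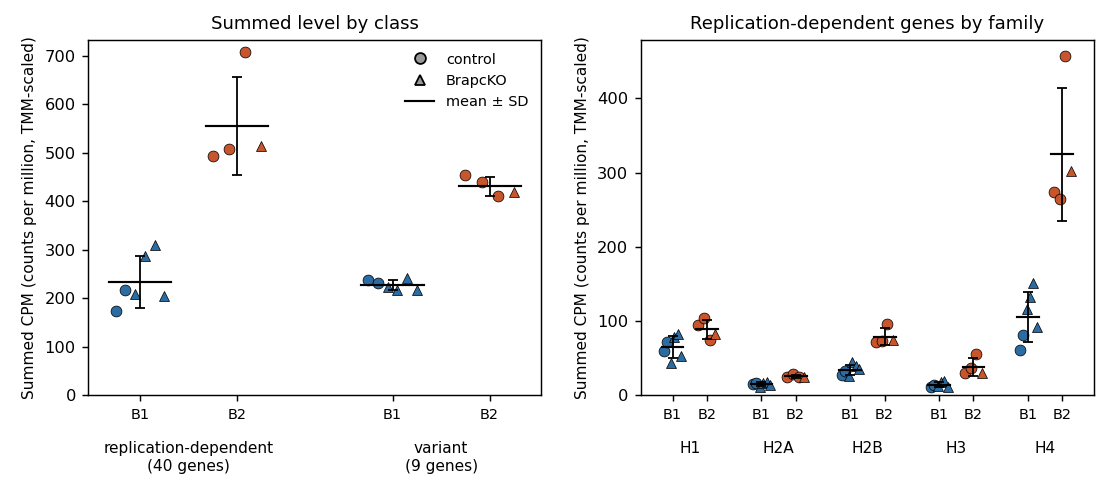
Summed levels (CPM, TMM-scaled) of the 2 classes (left) and of the 5 replication-dependent families (right) in each library, by title code; circles are control and triangles BrapcKO libraries, bars are the mean and SD of each code. The B2 points lie above all B1 points for both classes (494 to 707 against 173 to 310 CPM, and 411 to 454 against 216 to 242 CPM), and overlap them for H1 alone among the families.

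In a test of B2 against B1 over all genes, with the group as a term, 29 of the 40 replication-dependent genes were called higher and 0 lower at an adjusted p under 0.05 (edgeR quasi-likelihood test). Among all 14276 genes, 25.1% were called, 13.4% higher and 11.8% lower. For 28 of the 40, every B2 library was above every B1 library, which held for 10.6% of all genes (8.92% had every B2 library below). Calls of more than 2-fold were made for 27 of the 40 (3.97% of all genes) and of more than 4-fold for 11 (1.31%). The median log2 difference was 1.58 over the 40 genes (range -0.15 to 3.01) and -0.02 over all genes. Among the 9 variants, 7 were called higher and 0 lower, 5 of them by more than 2-fold and 3 by more than 4-fold, with a median of 1.12 (0.04 to 3.71). The shares of members called were above the table's share in both classes, and the ranges of the 2 classes overlapped. A gene low in B1 could pass the filter on low values through the 4 B2 libraries and a B1 library. Called members with a B1 median under the floor of 0.582 CPM include Hist1h2ac (0.31), Hist1h2bk (0.256), Hist1h2bl (0.282) and Hist1h3h (0.268). The counts of called and of separated genes are thus in part set by that filter, and nothing is read from such genes.

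**Figure D2:**
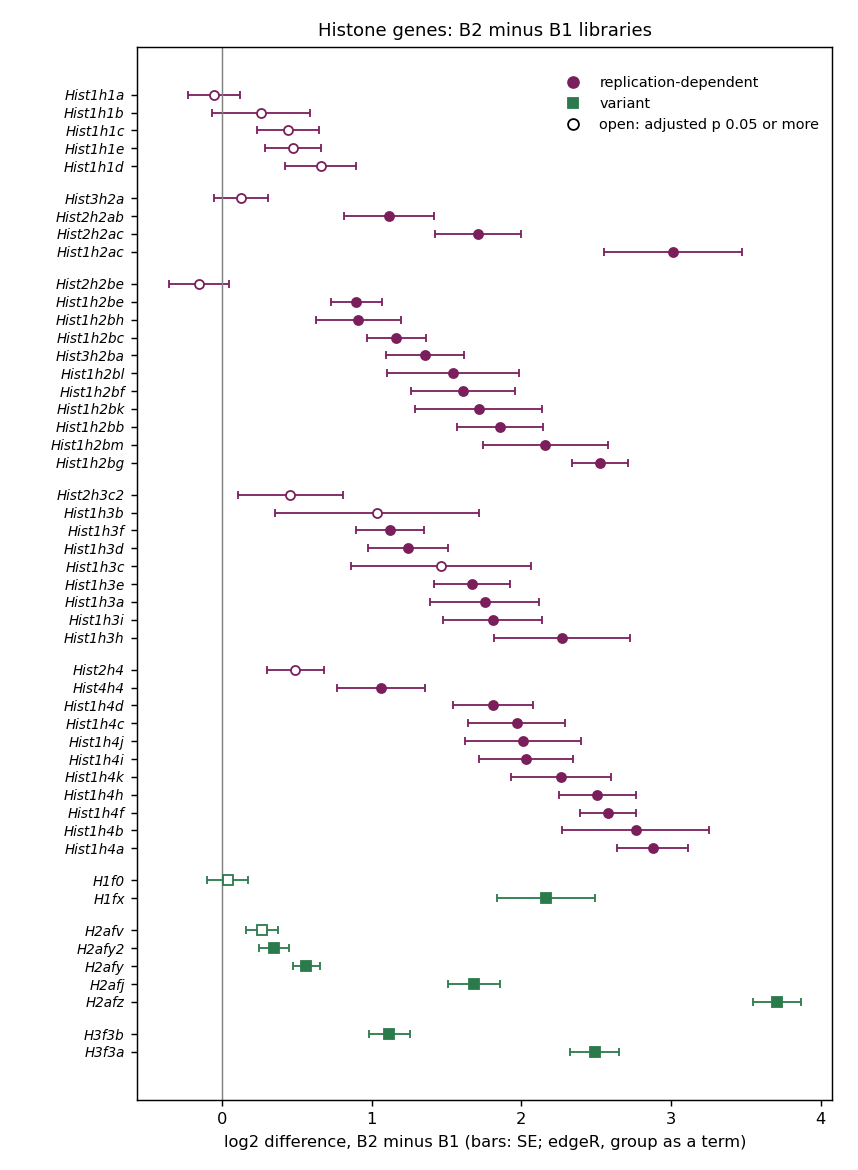
Log2 difference between B2 and B1 libraries of each of the 49 members with its SE (edgeR, group as a term), by class and family; filled symbols have an adjusted p under 0.05. The 5 replication-dependent H1 genes are all open, whereas 10 of 11 H2B and 10 of 11 H4 genes are filled, and H2afz is the highest at 3.71.

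The H4 genes had the highest median of the families. Of 11 genes for this core histone, which carries the most conserved protein sequence of the nucleosome, 10 were called higher, 7 of them by more than 4-fold, with a median log2 difference of 2.03 (0.49 to 2.88). Per kb of exon, the highest members in B2 were Hist1h4h (130 CPM per kb), Hist1h4d (78.6) and Hist1h4c (65.0). In B1 the variant H1f0 was highest (33.7 CPM per kb), ahead of Hist1h4h (29) and Hist1h4d (26.2). Hist1h4h (chr13:23531050-23531519, 1 exon) stood at 6.66 and 8.9 CPM in the B1 controls, at 15.3, 17.1, 19.2 and 14.7 CPM in BrapcKO 04 to 07, at 53, 48.3 and 84.7 CPM in the B2 controls and at 58 CPM in BrapcKO 21. The codes did not overlap, and within B1 the 2 controls were below the 4 BrapcKO libraries (B2 minus B1 log2 difference 2.51, SE 0.26, adjusted p = 2.4e-05). The share of all genes with such a split within B1 was not counted. Hist1h4d, of the same cluster, stood at 16.2 and 23.9 CPM in the B1 controls, 34.4, 37, 39 and 28.8 CPM in BrapcKO 04 to 07, 74.9, 69.9 and 133 CPM in the B2 controls and 79.8 CPM in BrapcKO 21 (1.81, SE 0.27, adjusted p = 5.0e-04). Control 24 was the highest library for both genes.

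Hist1h4a had the largest H4 difference, 2.88 (SE 0.24, adjusted p = 1.1e-06), with 1.23 to 3.12 CPM (median 1.99) in the 6 B1 libraries against 15, 13.8, 16.6 and 11.9 CPM in controls 22 to 24 and BrapcKO 21. Hist1h4f was higher by 2.58 (SE 0.19, adjusted p = 3.5e-07), with 2.47 to 4.39 CPM (median 2.99) in B1 and 14, 13.9, 22.1 and 18 CPM in B2. For Hist1h4k the B1 libraries held 2.11 to 8.07 CPM (median 3.73) and the B2 libraries 16.7, 15, 22.2 and 16 CPM (2.26, SE 0.33, adjusted p = 0.00042). All 3 genes had no overlap between the codes. Nor had Hist1h4c, which stood at 7.63 to 25.8 CPM (median 16.5) in B1 and at 38.2, 47.6, 80.1 and 47.2 CPM in B2 (1.97, SE 0.32, adjusted p = 0.0012). Hist2h4, on chromosome 3 outside the main cluster, was the H4 gene not called, with 0.49 (SE 0.19, adjusted p = 0.080). Its codes overlapped, as did those of Hist4h4 on chromosome 6, which was called (1.06).

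H2B and H2A encode the dimer that is exchanged most readily from the nucleosome. Of 11 replication-dependent H2B genes, 10 were called higher, with a median of 1.54 (-0.15 to 2.52). Hist1h2bg, whose promoter is shown above, stood at 1.83 to 3.59 CPM (median 2.27) in B1 and at 10.7, 10.2, 14.6 and 14.2 CPM in B2 (2.52, SE 0.19, adjusted p = 4.0e-07), and Hist1h2bb at 1.35 to 3.76 CPM (median 1.95) against 6.55, 5.97, 9.71 and 7.26 CPM (1.86, SE 0.29, adjusted p = 0.00041). Both were without overlap between the codes. Hist2h2be, an H2B gene known to be expressed in olfactory neurons, was the H2B gene that was not called: it held 3.53 to 6.38 CPM (median 5.02) in B1 and 6.68, 6.53, 4.55 and 3.36 CPM in B2 (-0.15, SE 0.20, adjusted p = 0.63). Its annotated transcript held no stem-loop and shared 0% of 50-base stretches with any other gene. It is counted as replication-dependent by its symbol alone, so its place in this class is uncertain.

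Of the 4 replication-dependent H2A genes, 3 were called higher (median 1.41). Hist1h2ac had the largest difference of all replication-dependent genes, 3.01 (SE 0.46, adjusted p = 0.00035), but rests on few reads: 2 to 15 counts in each B1 library (0.0944 to 0.842 CPM, median 0.31) and 52 to 110 in each B2 library (1.8, 3.32, 4.24 and 2.51 CPM). Exons of Hist1h2ac overlap those of 2 other annotated genes. Hist3h2a, the H2A gene not called, had 0.13 (SE 0.18, adjusted p = 0.66), and its exons overlap those of Trim17.

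Among 9 replication-dependent H3 genes, 6 were called higher, with a median of 1.46 (0.46 to 2.27). Hist1h3e stood at 2.95 to 5.43 CPM (median 3.81) in B1 and at 9.45, 11.8, 19.4 and 9.67 CPM in B2, with no overlap (1.67, SE 0.25, adjusted p = 0.00033). The 3 not called were Hist2h3c2 (0.46), Hist1h3b (1.04, adjusted p = 0.30) and Hist1h3c (1.46, adjusted p = 0.095); the last 2 rest on 1 to 60 counts in each library.

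The linker histone genes had the lowest median of the replication-dependent families. None of the 5 replication-dependent H1 genes was called, although 4 of the 5 estimates were above 0 (median 0.44, -0.05 to 0.66). Hist1h1e, the gene for a major somatic H1 subtype, stood at 24.6 and 29.6 CPM in the B1 controls, 14.1, 23.6, 28.4 and 18.7 CPM in BrapcKO 04 to 07, 39.7, 44.1 and 29.6 CPM in the B2 controls and 29.1 CPM in BrapcKO 21 (0.47, SE 0.19, adjusted p = 0.086). Its codes overlapped, and its exons overlap those of Hist1h2be, so reads of these genes cannot be told apart there. Hist1h1d had 0.66 (adjusted p = 0.061), Hist1h1c 0.44 (adjusted p = 0.14), Hist1h1b 0.26 and Hist1h1a -0.05. The 95% intervals reached 1.22 for Hist1h1d and 0.36 for Hist1h1a, so a 2-fold rise lies outside the interval of Hist1h1a and inside that of Hist1h1d. No test compared the families, and in other fits up to 2 of the 5 H1 genes were called.

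**Figure D3:**
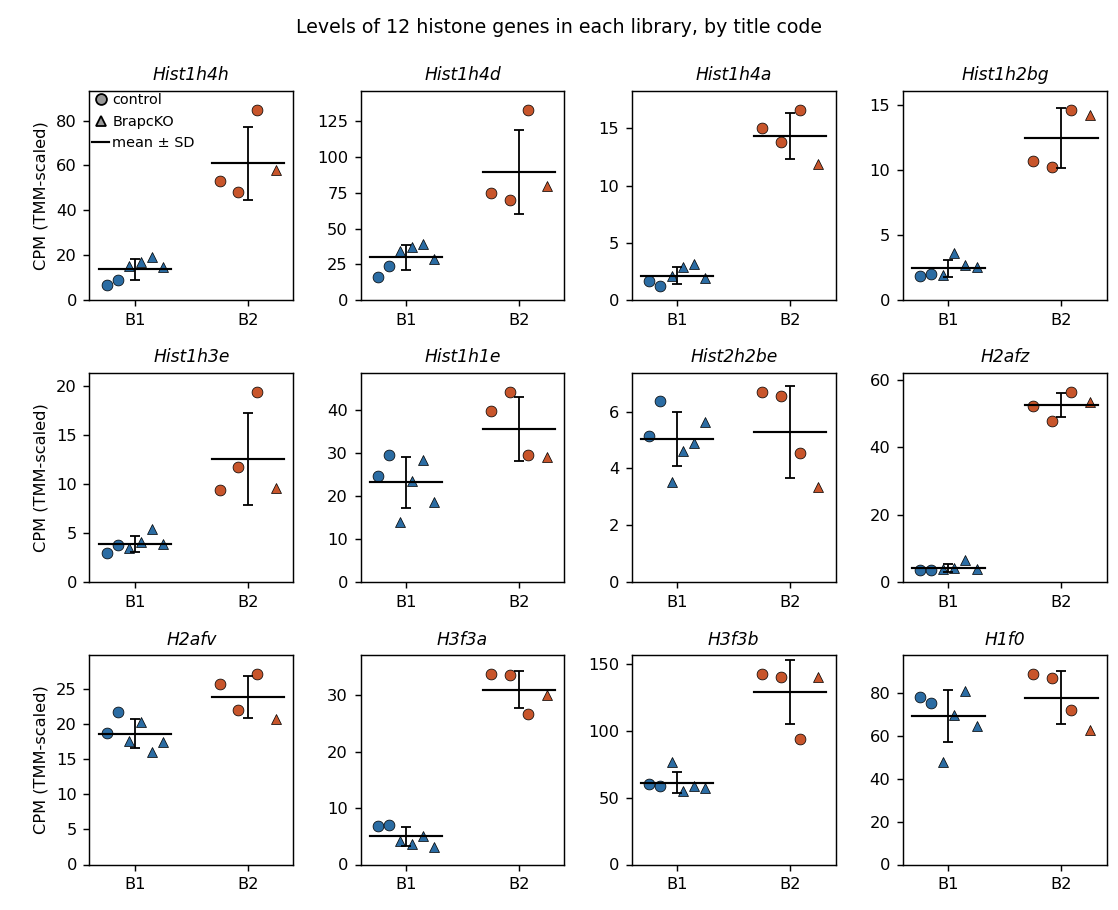
CPM (TMM-scaled) of 12 members in each library, by title code; circles are control and triangles BrapcKO libraries, bars are mean and SD, and each axis starts at 0. H2afz stands at 3.51 to 6.75 CPM in B1 and 48 to 56.4 CPM in B2, while Hist2h2be, H2afv, H1f0 and Hist1h1e overlap between the codes.

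Estimates for the variant genes ran from 0.04 to 3.71. H2afz encodes H2A.Z, the H2A variant found beside transcription start sites. It stood at 3.51 and 3.55 CPM in the B1 controls, 3.99, 4.32, 6.75 and 3.91 CPM in BrapcKO 04 to 07, 52.3, 48 and 56.4 CPM in the B2 controls and 53.6 CPM in BrapcKO 21. The lowest B2 value was far above the highest B1 value, and the fitted difference was 13.1-fold (log2 3.71, SE 0.16, adjusted p = 1.7e-09). H2afv encodes the second form of H2A.Z from a gene of its own, and shared 0% of 50-base stretches with other genes. It stood at 16 to 21.6 CPM (median 18.1) in B1 and at 25.7, 21.9, 27 and 20.6 CPM in B2, with overlap (0.27, SE 0.11, adjusted p = 0.085). Per kb of exon, H2afv was thus the higher of these genes in B1 (11.4 against 2.44 CPM per kb) and H2afz in B2 (29.6 against 14.6 CPM per kb).

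H3f3a and H3f3b encode the same protein, the H3 variant deposited independently of replication. H3f3a stood at 6.87 and 7 CPM in the B1 controls, 4.1, 3.71, 5.05 and 3.08 CPM in BrapcKO 04 to 07, 33.7, 33.6 and 26.7 CPM in the B2 controls and 30.1 CPM in BrapcKO 21 (2.49, SE 0.16, adjusted p = 1.2e-07). H3f3b stood at 60.5 and 58.5 CPM, then 76.7, 55.1, 58.6 and 56.9 CPM, then 142, 140 and 93.4 CPM, and 140 CPM, in the same order (1.12, SE 0.14, adjusted p = 4.6e-05). Neither gene overlapped between the codes. Transcripts of H3f3a shared 27.1% of their 50-base stretches with other genes and those of H3f3b 6.86%.

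H2afj, an H2A variant gene near Hist4h4 on chromosome 6, stood at 5.57 to 7.43 CPM (median 6.21) in B1 and at 19.9, 19.4, 32.9 and 17.7 CPM in B2 (1.68, SE 0.18, adjusted p = 1.1e-05). H1fx, a linker variant, had 2.16 (SE 0.33, adjusted p = 0.00032), and its exons overlap 2 other genes. The macroH2A genes H2afy and H2afy2 had smaller differences, 0.56 (adjusted p = 5.0e-04) and 0.35 (SE 0.10, adjusted p = 0.024). H2afy2 held 11 to 15.3 CPM (median 13.4) in B1 against 18.6, 17.5, 20.7 and 15.8 CPM in B2, which did not overlap. H1f0, the linker histone of cells that have stopped dividing, was the highest variant per kb in B1 (33.7 CPM per kb, H3f3b 20.5) but not in B2 (37.7, H3f3b 43.3), and stood at 47.5 to 80.9 CPM (median 72.4) in B1 and 88.5, 86.9, 72 and 62.8 CPM in B2 (0.04, SE 0.14, adjusted p = 0.86). H2afj, H2afy and H2afy2 were thus separated by code and H1f0 was not.

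Properties of the annotated transcripts moved with the difference between the codes. Of the 35 core replication-dependent genes, those under 1 kb of exon were called in 21 of 23 cases (median 1.86) and those of 1 kb or more in 8 of 12 (median 0.99). Across the 40 replication-dependent genes, Pearson's r between log2 exon length and the log2 difference was -0.54 and Spearman's rho -0.58; the points share libraries, cluster and sequence, and no p is given. Over all genes of the table the median difference was 0.48 under 1 kb, 0.24 at 1 to 2 kb, 0.08 at 2 to 4 kb and -0.10 over 4 kb. The shares called higher were 45%, 31.9%, 17.7% and 7.15% in that order (40.3% under 1 kb without the histone members). The part of length in the histone differences was not tested.

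The share of a gene's 50-base stretches found in transcripts of any other gene, a measure chosen after values of these data were seen, moved with the code difference too. Members that share most with other genes include Hist1h3h at 93.9% (2.27) and those that share none are H2afv (0.27), Hist2h2be (-0.15), Hist1h1a (-0.05) and Hist1h1b (0.26), of which 0 of 4 were called. Pearson's r was 0.46 over the 40 replication-dependent genes and 0.85 over the 9 variants (Spearman's rho 0.44 and 0.82). Over the 35 core genes, without H1, r was 0.30 and rho 0.25. Outside the histone genes the median difference was -0.04 for the 5693 genes that share nothing, -0.06 for the 6281 genes that share up to 10%, 0.22 for the 1347 genes that share above 10 to 25%, 0.50 for the 645 genes at above 25 to 50% and 0.73 for the 256 genes above 50%, and the shares called higher were 5.83%, 8.95%, 36.7%, 53.8% and 53.1% in that order. A difference in this direction is thus not particular to histone genes. The medians over the histone classes, at all shares of shared sequence, were larger (1.58 for replication-dependent and 1.12 for variant genes). Within each of these bins the histone medians were not compared by a test, and the part of shared sequence in the result was not tested.

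**Figure D4:**
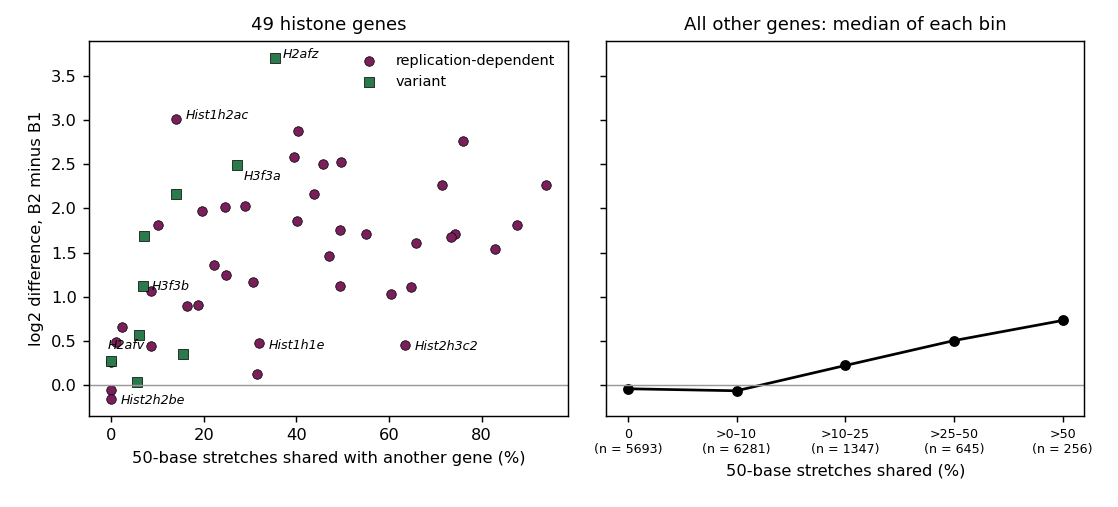
Left, log2 difference between B2 and B1 (edgeR) against the percentage of a gene's 50-base stretches found in transcripts of another gene, for 40 replication-dependent (circles) and 9 variant (squares) genes. Right, the median difference of all other genes by the same percentage; it goes from -0.04 to 0.73 over the bins, on the same vertical axis.

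The stem-loop and the promoter letters were set beside the differences as well. Core genes whose annotated transcript ends within 200 bases of the stem-loop were called in 12 of 14 cases (median 1.81), those with more than 200 bases after it in 11 of 14 (1.18), and those with none annotated in 6 of 7 (1.54). The 28 replication-dependent promoters with the CCAAT box had a median of 1.5 with 19 genes called, and the 7 without it, all called, 2.26; the 10 H4 promoters, of which 3 hold it, are unevenly divided between these sets. The 5 promoters with the H1 box had a median of 0.47, and 4 of them belong to the H1 genes. These are descriptions of overlapping sets.

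Genes of 3 partner lists were examined in the same fit. Of the histone mRNA processing genes, 15 of 17 were measured, with 3 called higher, 2 lower and a median of 0.01 in B2 against B1. Slbp, which encodes the protein that binds the stem-loop, had 0.66 (adjusted p = 0.00042), Ncbp2, a cap-binding subunit, 0.79 (adjusted p = 0.00011), and Lsm11, a subunit of the U7 particle that directs cleavage after the stem-loop, -0.43 (adjusted p = 0.014). Of the histone chaperones, 28 of 30 were measured, with 9 called higher, 2 lower and a median of 0.11. Set, an acidic chaperone of H1 and the core histones, had the largest difference among them (2.47, adjusted p = 4.2e-10), ahead of Npm1, nucleophosmin (1.58, adjusted p = 1.5e-08). The share of chaperones called higher was thus above the 13.4% of the table, while that of the processing genes (3 of 15) was near it.

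S phase and proliferation genes had a median near that of all genes. Of 38 listed genes, 34 were measured, 3 were called higher and 1 lower, the median difference was 0.08, and their summed level was 153 to 230 CPM in B1 and 177 to 214 CPM in B2, with overlap. Fen1, a nuclease that processes Okazaki fragments, had 4.12 (adjusted p = 7.6e-09), with 0.412 to 1.46 CPM in B1 and 11.5 to 15 CPM in B2. Pcna, the polymerase clamp, had 0.98 (adjusted p = 5.6e-04). Tk1, thymidine kinase, had -2.49 (adjusted p = 0.0012), with 0.733 to 1.76 CPM in B1 and 0.104 to 0.424 CPM in B2. The Tk1 values and the B1 values of Fen1 rest on few reads. Mki67, the marker of dividing cells, had -0.93 (adjusted p = 0.098).

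The second comparison asked whether histone genes differ between BrapcKO and control cortex once the title code is a term. With edgeR, 0 of the 49 members were called, against 8.07% of all genes (3.12% higher and 4.95% lower). At an unadjusted p under 0.05, 1 replication-dependent gene was higher (Hist1h4h) and 1 lower (Hist2h2be), and 2 variants were lower (H3f3a and H2afy2); over all genes 10.4% were higher and 11.7% lower at that threshold. DESeq2 called 1 member, Hist1h4h, and limma-voom 0. No member had every BrapcKO library above or below every control, against 3.12% and 3.71% of all genes. For the 35 members with every B2 library above every B1 library this is fixed by the design, since each group holds libraries of both codes, and nothing is read from it. The median log2 difference was 0.09 (-0.69 to 0.87) over the replication-dependent genes, of which 25 of 40 were above 0. Over the variants it was -0.21 (-0.47 to 0.25), and 4 of 9 were above 0. Among all genes 7374 of 14276 were above 0.

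**Figure D5:**
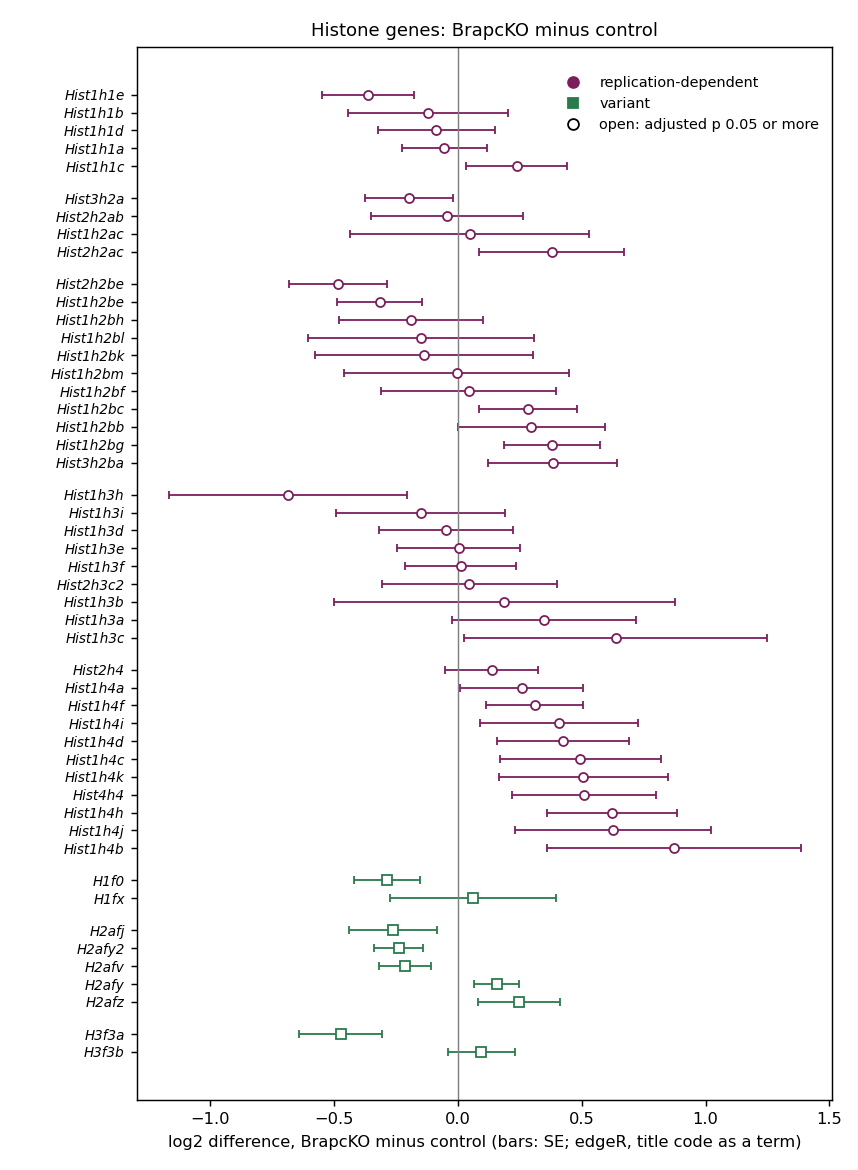
Log2 difference between BrapcKO and control libraries of each of the 49 members with its SE (edgeR, title code as a term). All symbols are open, as 0 of 49 had an adjusted p under 0.05; the 11 H4 genes lie between 0.14 and 0.87.

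Estimates of the H4 genes were all above 0, 11 of 11, with a median of 0.50 (0.14 to 0.87), and none was called. Over all genes 7374 of 14276 estimates were above 0. The H4 genes share sequence and libraries, so their estimates are not independent and their common direction is not counted as repeated evidence. The H4 sum was 60.3 and 80.5 CPM in the B1 controls and 116, 132, 151 and 92.3 CPM in the B1 BrapcKO libraries, which did not overlap. How many genes of the table split in this way was not counted, and sex also differs between these libraries, as given above. With a Y-linked score as a further term, 11 of 11 H4 estimates over all libraries were above 0 (median 0.608), and 0 were called. In B2 the 1 BrapcKO library, at 302 CPM, lay between the controls at 274, 265 and 457 CPM. Hist1h4h had the smallest p of the family (0.62, SE 0.26, edgeR adjusted p = 0.19). Its adjusted p fell under 0.05 in the B1 libraries alone (1.09, adjusted p = 0.017), by DESeq2 (0.67, adjusted p = 0.037), without control 24 (0.75, adjusted p = 0.027) and without BrapcKO 21 (1.08, adjusted p = 0.035). The estimate was smaller by limma-voom (0.44, adjusted p = 0.33) and without control 08 (0.37, adjusted p = 0.53), where 10 of 11 H4 estimates were above 0 in each case, with medians of 0.24 and 0.33. With the group as the only term its estimate was -0.70, and 0 of 11 H4 estimates were above 0. The direction of the H4 estimates therefore depends on whether the title code is a term.

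Other families had estimates on both sides of 0. Hist2h2be had -0.48 (SE 0.20, adjusted p = 0.17), with 5.14, 6.38, 6.68, 6.53 and 4.55 CPM in the controls against 3.53, 4.61, 4.91, 5.62 and 3.36 CPM in the BrapcKO libraries, which overlapped. Hist1h2bg had 0.38 (adjusted p = 0.27) and Hist1h1e -0.36 (adjusted p = 0.28). Among variants, H3f3a had -0.47 (SE 0.17, adjusted p = 0.11), H2afy2 -0.24 (adjusted p = 0.18) and H1f0 -0.29 (adjusted p = 0.23). H3f3a was lower in the 4 BrapcKO libraries of B1 (3.08 to 5.05 CPM) than in its 2 controls (6.87 and 7 CPM), and its adjusted p was 0.043 without BrapcKO 21. The share of all genes with that split within B1 was not counted either. With edgeR, 0 genes of the partner lists were called in this comparison. At an unadjusted p under 0.05, 5 S phase genes were higher and 1 lower (list median 0.21), 3 chaperones were higher and 1 lower, and 1 processing gene was higher and 1 lower. These counts stand beside the 10.4% and 11.7% of all genes given above.

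Whether the code difference itself differed between the groups was tested with a product term. It called 0 genes of the table (0%, with 1069 at an unadjusted p under 0.05) and 0 members. Unadjusted p-values were under 0.05 for 6 replication-dependent genes, 5 of them H4 (Hist1h4a, Hist1h4b, Hist1h4d, Hist1h4h and Hist1h4j) and the other Hist3h2ba, and for the variants H1fx (-1.35) and H3f3a (0.74). For Hist1h4h the term was -1.19 (SE 0.37, adjusted p = 0.64). The term rests on BrapcKO 21, the only BrapcKO library of B2.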

How the data were processed

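Reads per gene were counted by the authors, and the deposited counts are raw whole numbers in 1 column per library. The submitters' processing notes name featureCounts and Subread, FastQC, edgeR and DESeq2, and the builds mm10 and GRCm38. For versions, strand setting and the handling of shared reads, nothing is stated in the sources used here. GENCODE M21 matched 14271 of 14276 identifiers.

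Counts of all genes were fitted with edgeR 4.0.16 in R 4.3.3 (TMM, robust quasi-likelihood fit, Benjamini-Hochberg over all genes), with title code and group as terms; 7 residual degrees of freedom remained. SE is the log2 difference over the square root of F. Intervals are at 95%. A p adjusted under 0.05 is a call. Alternatives used DESeq2 1.42.0, limma 3.58.1, other terms, scalings and filters, and each library left out. The scripts were tested on simulated data.

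Values are given per library for 18 members: those with the smallest p in each comparison (8 and 4 replication-dependent, 4 and 3 variant) and the 3 most abundant per kb of each class, and for up to 4 genes of each partner list. Members and lists were chosen with earlier results of these data known. Libraries of a group differed by more than counting noise (chi-square per degree of freedom 7.16 to 96.4).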

Additional observations from a re-analysis of the deposited data

Results flagged for a closer look

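Among 80 groups of library values checked for 18 named members and the class sums, 16 held a value far from the nearest other one. Chance marks about 1 in 20 groups of like libraries, and values of related genes are not independent. That rate does not apply to the control and BrapcKO groups, which mix libraries of both codes. Many of the members were also named for their difference between the codes, so nothing is read from the count of 16.

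Most of them were BrapcKO 21, the only B2 library in its group, which was apart from the other BrapcKO libraries for Hist1h4f (18 CPM, next 4.39), Hist1h2bg (14.2, next 3.59), Hist1h4a (11.9, next 3.12), Hist1h4h (58, next 19.2) and Hist1h4d (79.8, next 39). The same held for the variants H2afz (53.6 CPM, next 6.75), H3f3a (30.1, next 5.05), H2afj (17.7, next 7.41) and H3f3b (140, next 76.7), and for the variant sum (419 CPM, next 242). For each of these BrapcKO 21 was within or near the range of the B2 controls.

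Within B2, control 24 stood apart: its level was the highest for H2afj (32.9 CPM, next 19.9), Hist1h4d (133, next 79.8) and the replication-dependent sum (707, next 514), and the lowest for H3f3b (93.4, next 140). Choroid plexus markers were also highest in control 24, and their part in these values was not tested.

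Within B1, BrapcKO 06 was the highest for H2afz (6.75 CPM, next 4.32) and BrapcKO 04 for H3f3b (76.7 CPM, next 60.5).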

How the results depend on the processing

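In B2 against B1, 31 to 39 of the 49 members were called under the alternatives (36 as reported; 33 of 43 with a mean of at least 1 CPM), and 26 to 31 of the replication-dependent genes under other terms, tools, scalings, filters or controls alone. Leaving out 1 library gave 25 to 31 replication-dependent and 6 to 8 variant calls, with medians of 1.41 to 1.96 and 1.08 to 1.22. Control libraries alone gave a replication-dependent median of 1.97. H2afy2 was not called in controls alone (adjusted p = 0.091) or without control 08, control 09 or BrapcKO 21 (0.093, 0.060 and 0.093). Title code as the only term added Hist1h1d, Hist1h1e and H2afv and lost Hist4h4. Hist4h4 was also lost without control 08 or control 09. Hist1h2bh was lost by DESeq2, in controls alone, and without control 08, 09, 22 or 24 or BrapcKO 07 or 21. Hist1h2bl was lost in the same fits as H2afy2, and Hist2h2ab without control 08, control 09 or BrapcKO 21.

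In BrapcKO against control, 1 replication-dependent gene was called in the B1 libraries alone and 1 by DESeq2. Leaving out 1 library gave 0 to 1 replication-dependent call (Hist1h4h without control 24 or BrapcKO 21, and Hist1h2be, lower, without BrapcKO 05) and 0 to 1 variant call (H3f3a, lower, without BrapcKO 21), with medians of -0.03 to 0.41 and -0.25 to -0.15. With the group as the only term the medians were -0.56 and -0.38, and with a Y-linked score as a further term the variant median was -0.12. The cause was not tested, except that the first of these fits drops the title code. Genes called over the table ranged from 320 (Y-linked score) to 1682 (DESeq2), against 1152. No paired analysis was possible because the title numbers are not shared between the groups. Depth limits genes of few counts, such as Hist1h2ac and Hist1h3c.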
